A study of Homo sapiens with 35 samples.

Results

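RNA polymerase II (RNA Pol II) was found at 5192 promoter sites in all 4 ChIP-seq peak lists of control U-87 MG cells, whether or not the cells had been treated with TWEAK. These constant promoter sites were chosen from the measured peaks themselves. Overlapping peaks of the 4 lists on chromosomes 1 to 22 and X were merged into 70348 sites, of which 8981 held a peak in every list. A site was kept when its centre lay no more than 1000 bp before and 100 bp after a GENCODE transcript start on hg38, which left 5192 of the 8981 constant sites (57.8%, 95% exact binomial interval 56.8 to 58.8). Presence, width, rank and fold enrichment in these 4 lists are therefore a description of how the sites were selected, and no test was made on them. All intervals given for shares of sites cover counting error only.

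The established line U-87 MG was derived from a human glioblastoma. The cells were starved for 8 h, and TWEAK, a TNF-family cytokine and inducer of non-canonical NF-κB signalling, was given at 10 ng/ml for 48 h. RNA Pol II ChIP-seq was available for control cells left untreated, control cells with TWEAK, and cells with CRISPR knockdown (KD) of ETS1 or of NFKB2, both with TWEAK, with 2 libraries in each of these 4 groups. The same 4 groups were profiled by RNA-seq with 3 libraries each, and ETS1 and p52 (the processed NFKB2 product) were profiled by ChIP-seq in control cells with and without TWEAK, and p52 also in ETS1 KD cells with TWEAK. The labels name a guide only for the p52 libraries and inputs of ETS1 KD cells, so which guide served the RNA Pol II and RNA-seq libraries is not given in the sources used here. No KD library was left untreated.

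RNA Pol II transcribes protein-coding genes and most small nuclear RNA (snRNA) genes. After initiation the enzyme commonly pauses a short way downstream of the start and is also loaded at starts that point the other way, so that ChIP-seq gives a narrow peak at the promoters of active and poised genes, whereas strongly transcribed genes carry signal along their whole body. The antibody used here, CTD4H8, recognises the repeated tail of the largest subunit, and does not separate paused from elongating enzyme.

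The RNA Pol II lists differed in length, from 24766 peaks on chromosomes 1 to 22 and X in untreated replicate 1 and 38245 in untreated replicate 2 to 44564 and 26986 in the TWEAK replicates. The KD lists held 24667 and 29744 peaks for ETS1 and 30267 and 11110 for NFKB2, so NFKB2 KD replicate 2 was far shorter than the others. The 12 RNA libraries held between 28384201 and 40192606 counts in genes. The study's methods call the 3 RNA libraries of a group biological replicates without saying how they were separated, and p-values measure the spread between these samples. In bulk RNA, fewer cells of a kind and less RNA per cell cannot be told apart. ETS1 RNA was at 71.9, 73.1 and 87.6 CPM (counts scaled to library size) in control cells with TWEAK and at 28.2, 33.0 and 37.8 CPM in ETS1 KD cells, a log2 fold change of -1.23 ± 0.15 (SE, edgeR adjusted p = 0.00112). NFKB2 RNA was at 235.4, 288.5 and 346.1 CPM in the same controls and at 75.6, 92.6 and 104.9 CPM in NFKB2 KD cells (-1.67 ± 0.18, edgeR adjusted p = 0.00339). Of the glial and mesenchymal markers, VIM (6697 TPM) and CD44 (476.2 TPM) were high and NES was at 72.3 TPM, while SOX2, GFAP and S100B were below 1 TPM. CDKN2A, CDKN2B and MTAP, which are deleted in U-87 MG, had no counts at all in untreated control cells.

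The strongest constant promoter sites were those of snRNA genes, which encode the RNA cores of the spliceosome. All 8 sites with the best mean rank over the 4 lists spanned the start of a snRNA gene, as did 14 of the best 20 and 17 of the best 100, although only 24 of the 5192 sites did so in all. The site of RNU2-2P, a U2 gene beside the WDR74 promoter, led the ranking of the promoter sites. Among all 8981 constant sites it ranked 6, 7, 7 and 8 in the 4 lists, and some constant sites outside promoters were stronger. It was enriched 446.0-fold over input in untreated replicate 1, 296.1-fold in untreated replicate 2, 600.5-fold in TWEAK replicate 1 and 289.7-fold in TWEAK replicate 2. The site of RNU11, the minor-spliceosome U11 gene beside TAF12, was enriched 358.4-, 304.9-, 602.8- and 264.1-fold in the same order. RNU4-1 and RNU4-2, neighbouring U4 genes, shared one site with 311.5-, 264.8-, 462.7- and 234.6-fold enrichment. TWEAK replicate 1 gave the highest value at each of these sites and its TWEAK partner the lowest, so the treatment groups overlapped. A further 4 of the leading sites were copies of the U2 gene in the chromosome 17 repeat array, and another was the U1 variant RNVU1-29. Reads cannot be placed with certainty among such near-identical copies, so their separate values are uncertain. The RNA of these genes lacks a poly(A) tail and is not measured by poly(A)-selected RNA-seq.

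The 250 bases before the starts of 4 of these genes are shown because snRNA genes have a promoter of their own kind, with a distal octamer that binds OCT factors. Each is written 5′ to 3′ along the gene and ends at the base before the start, and capitals mark exact matches to the octamer ATGCAAAT on either strand. They were read from hg38, at chr11:62841810-62842059 (minus strand), chr1:28648350-28648599 (plus strand), chr12:120291904-120292153 (minus strand) and chr2:121530631-121530880 (plus strand).
RNU2-2P: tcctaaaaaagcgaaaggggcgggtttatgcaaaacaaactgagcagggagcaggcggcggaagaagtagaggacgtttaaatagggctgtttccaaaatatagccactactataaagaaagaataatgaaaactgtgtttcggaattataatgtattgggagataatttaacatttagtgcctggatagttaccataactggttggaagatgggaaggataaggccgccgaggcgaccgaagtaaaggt
RNU11: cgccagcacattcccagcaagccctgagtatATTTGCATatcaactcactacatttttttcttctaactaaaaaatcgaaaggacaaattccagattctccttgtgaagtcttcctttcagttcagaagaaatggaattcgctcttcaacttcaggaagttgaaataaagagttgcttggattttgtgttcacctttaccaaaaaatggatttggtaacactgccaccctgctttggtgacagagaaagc
RNU4-2: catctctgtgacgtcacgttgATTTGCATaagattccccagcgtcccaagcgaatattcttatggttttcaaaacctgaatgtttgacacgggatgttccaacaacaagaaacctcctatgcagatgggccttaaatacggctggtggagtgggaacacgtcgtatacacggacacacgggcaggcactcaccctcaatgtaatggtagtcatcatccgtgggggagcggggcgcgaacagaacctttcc
RNU4ATAC: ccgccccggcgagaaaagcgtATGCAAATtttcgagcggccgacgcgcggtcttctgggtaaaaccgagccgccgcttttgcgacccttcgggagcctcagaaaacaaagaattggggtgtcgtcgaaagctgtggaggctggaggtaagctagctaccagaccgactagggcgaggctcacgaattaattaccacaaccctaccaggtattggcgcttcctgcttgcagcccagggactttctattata
The octamer stood at -219 in RNU11 and at -229 in both RNU4-2 and RNU4ATAC, the U4atac gene beside CLASP1, counted from the start, and RNU2-2P held no exact match. Of the 18 snRNA genes in sites of mean rank under 300, 9 held the octamer in these 250 bases. These 9 include the near-identical U2 copies of the chromosome 17 array. It was in 1.62% of 19016 protein-coding promoters, read there over 300 bases from 250 before to 50 after the start. The octamer was searched for after the leading sites had been seen, and a match is not evidence of binding. The remaining 7 snRNA genes, 2 of which held the octamer, lay in weaker sites. They included RNU6-2 and RNU6-9, which are transcribed by RNA Pol III. The RNU6-2 site, which also holds the TMEM259 promoter, was enriched 12.6-, 12.9-, 26.5- and 15.6-fold.

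**Figure D1:**
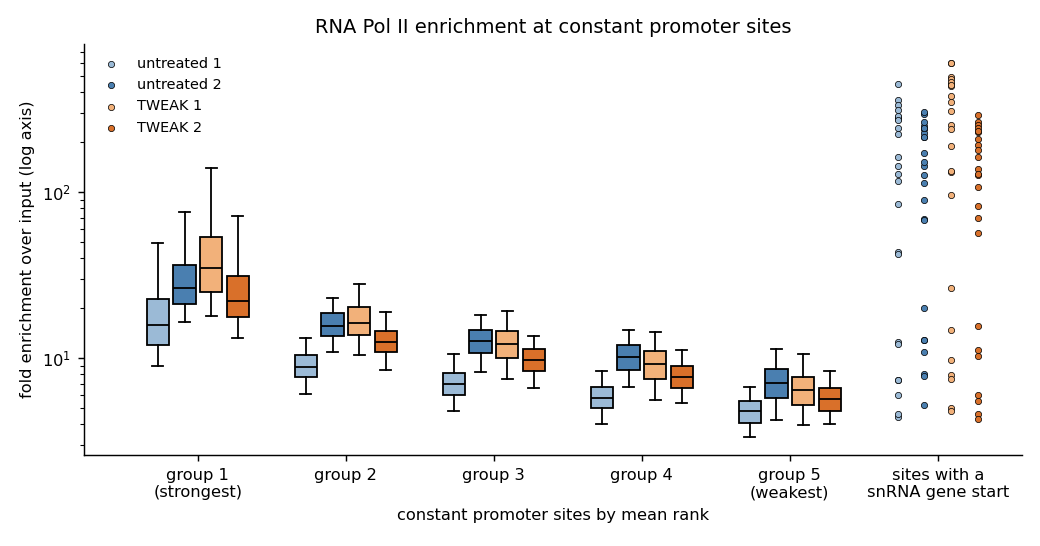
Fold enrichment over input (log axis) at constant promoter sites in the 2 untreated and 2 TWEAK libraries, with sites split by mean rank into 5 groups of equal size (boxes are quartiles, whiskers the 5th and 95th percentiles) and the 24 sites that span a snRNA gene start as points. The medians fall from group 1 to group 5 in every library, and most snRNA sites lie above the boxes of group 1.

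Away from the snRNA genes the sites were modest in height and narrow. The median fold enrichment of the 5192 sites was 7.19 in untreated replicate 1, 12.8 in untreated replicate 2, 12.3 in TWEAK replicate 1 and 9.79 in TWEAK replicate 2. Untreated replicate 1 was the lowest of the 4 libraries, and the replicates of one treatment differed more than the treatments did. The strongest peak at a site had a median width of 435 bp in untreated replicate 1 and of 796.5, 757 and 616 bp in the others. Merged over the 4 lists, a site had a median width of 1025.5 bp (quartiles 720 and 1506). Sites were also split by mean rank into 5 groups of equal size, from group 1 (strongest) to group 5 (weakest). From group 1 to group 5 the median fold enrichment fell from 15.8 to 4.78 in untreated replicate 1 and from 34.9 to 6.40 in TWEAK replicate 1, and the median peak width fell from 1007.5 to 461.25 bp. Width and rank were related across sites (Spearman's rho 0.53 over 5192 sites, which share libraries, so that no p is given). In its own full list, between 49.1% (untreated replicate 1) and 83.9% (TWEAK replicate 1) of the constant promoter sites were in the top 20%.

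The rule on the centre left out the broadest RNA Pol II domains. Of the 3789 constant sites that were not called promoters, 1189 (31.4%) spanned a transcript start all the same, with their centre outside the window. VIM, which encodes the intermediate filament vimentin, had a site of 15278 bp with its centre 6238 bp downstream of the start, and ACTB, CD44, NFKBIA, NEAT1 and MALAT1 were also left out in this way. These genes were looked up after the wide sites had been seen. Sites wider than 5 kb made up 1.60% of the constant promoter sites, 10.3% of the constant sites outside promoters and 23.5% of those that spanned a start. When a site was instead called a promoter for spanning any start, 70.1% of the constant sites qualified.

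The 5 widest members were taken by the median width of their peaks in the 4 lists, and their merged widths are given here. The first ran 100444 bp over LINC-PINT, a long non-coding RNA gene, and was followed by a site of 40984 bp over NAMPT, which encodes the rate-limiting enzyme of NAD salvage. A site of 27461 bp was assigned to the pseudogene RN7SL473P but also held the start of MCL1, a pro-survival BCL2 family gene. A site of 25135 bp assigned to FIBP spanned 4 coding starts and included FOSL1, an AP-1 subunit. A site of 11541 bp covered DDX5, an RNA helicase gene, with POLG2 and CEP95. For such sites the gene named is only the one nearest to the centre. At the other end, the sites of ODF3B, TLE4 and ARPC5 were the narrowest, with median peak widths of 199, 206 and 207 bp.

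At the upstream edge of the window, sites near NUDCD2 and LIMA1 had centres at -999 and were kept, while sites near IQCD at -1003 and RIPK4 at -1007 were not. At the downstream edge, sites near RNVU1-29 and CXCL3 at +100 were kept, and sites near PHC3 and DNAJC18 at +101 were not. Fold enrichment in untreated replicate 2 was 17.6, 14.4, 215.0 and 11.6 at the 4 sites kept and 49.6, 6.74, 11.1 and 6.36 at the 4 left out, so the sites on the 2 sides of the edges overlapped.

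Summits lay on both sides of the start. Among 3154 sites whose centre was in the window of a MANE transcript, the reference transcript of its gene, the median summit was at +22 bp in untreated replicate 1 and at +27, +37 and +31 bp in the other libraries. A sharp group of summits lay within 100 bp downstream of the start, where RNA Pol II is known to pause, and a broader group lay farther upstream. Between 54.1% and 62.1% of the summits were downstream. The window itself reaches farther upstream than downstream, so these shares depend on the rule. Transcript starts on both strands fell in the window of 1684 sites (32.4%), and starts of protein-coding genes on both strands in that of 725 (14.0%).

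**Figure D2:**
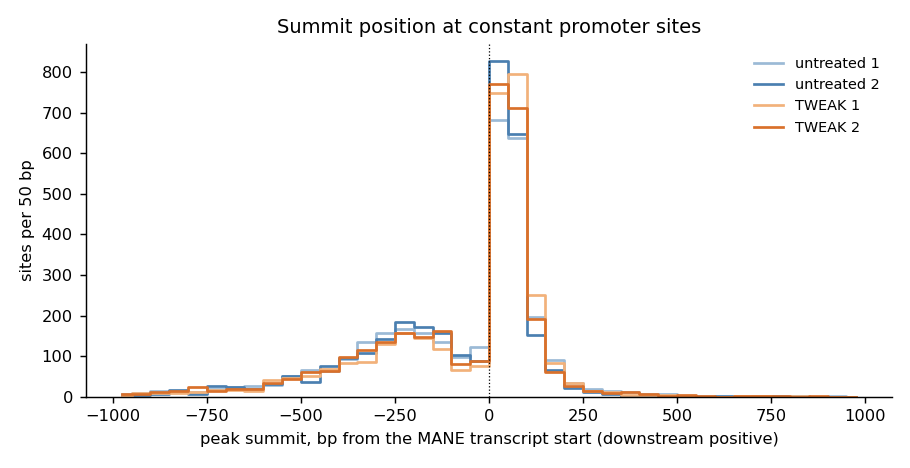
Position of the RNA Pol II peak summit relative to the MANE transcript start (bp, downstream positive) at 3154 constant promoter sites, counted per 50 bp, one line for each control library. All 4 lines have a sharp maximum just downstream of the start and a lower, broad shoulder upstream.

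The sites belonged to 4964 genes when each was given 1 gene, the protein-coding gene with the nearest start or otherwise the nearest gene. The start could be that of any annotated transcript, so some sites lay at an inner start of their gene. A protein-coding gene was assigned at 4653 sites and a long non-coding RNA gene at 451. The 4431 protein-coding genes were 22.2% of the 19957 on these chromosomes, and the share by chromosome ran from 13.5% on X to 29.0% on chromosome 5. Their promoters were rich in CpG. Over 300 bases at the MANE start, the median ratio of observed to expected CpG was 0.88 in the promoters of 4374 member genes. It was 0.78 in all 19016 promoters and 0.84 in 6648 promoters of genes with at least 1 TPM that were not members. A ratio of 0.6 or more was found in 92.8%, 68.4% and 83.8% of these 3 sets, while the median GC content was 66.0%, 63.7% and 66.7%. A MANE start can lie away from the site of its gene, since only 3154 of the 5192 sites had their centre in the window of a MANE transcript. Genes such as VIM, whose start lay in a constant site centred outside the window, were not members.

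Several short motifs were more frequent in member promoters than in other promoters of expressed genes. These sets of promoters were not matched for RNA level or CpG content, and the part of either in the motif shares was not tested. The ETS core CTTCCGG was searched on both strands, as all motifs were. It was in 24.1% of member promoters, 14.1% of all promoters and 16.4% of the promoters of expressed genes that were not members. TCTCGCG, the core recognised by KAISO and related factors, was in 8.64%, 5.12% and 5.91%, the CRE core TGACGTC in 7.64%, 4.69% and 5.11%, and the YY1 core AAGATGG in 9.37%, 6.46% and 6.74%. For NRF1 (GCGCATG) the shares were 8.71%, 5.85% and 7.30%. The GC box GGGCGG was common everywhere, with 76.4%, 62.2% and 73.7%. CCAAT was in 38.9%, 36.0% and 34.7% and the TATA box TATAAA in 5.33%, 9.53% and 5.29%. The AP-1 site TGANTCA was in 3.66%, 5.43% and 4.66%, and the κB site in 6.72%, 6.59% and 6.80%, so these last 2 were no more frequent among members.

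Genes of the constant promoter sites were well expressed. TPM (transcript level from counts corrected for exon length and scaled within a library) had a median of 30.2 over the 4431 protein-coding genes in untreated cells (29.7, 30.5 and 30.3 in the 3 libraries), against 4.18 over all protein-coding genes. The 146 genes whose promoter site was gained with TWEAK, with peaks in both TWEAK lists and neither untreated list, had a median of 18.2 TPM. The 9768 genes with no RNA Pol II promoter site in any control list had a median of 0.023 TPM. At least 1 TPM was reached by 95.3% of member genes, and 48 had no counts in untreated cells. RNA level was not used to choose the sites.

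The share of protein-coding genes assigned to a constant promoter site rose with RNA level but stayed below 50%. Among genes with counts it went from 1.72% in the lowest 10% of genes to 48.9% in the highest. These shares depend on the rule, since a site was given only 1 gene. In all, 5260 protein-coding genes had a start in the window of a constant promoter site, and 4431 were assigned to one. Genes under constant sites centred outside the window were not counted. Within the sites the relation was weak. The median TPM was 41.8 in rank group 1, then 33.5, 29.8 and 25.8, and 25.01 in group 5, with quartiles of 16.6 and 121.7 in the first and of 9.29 and 61.4 in the last. The rank correlation of site strength and TPM was 0.15 across 4653 sites, a description over sites of the same libraries.

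**Figure D3:**
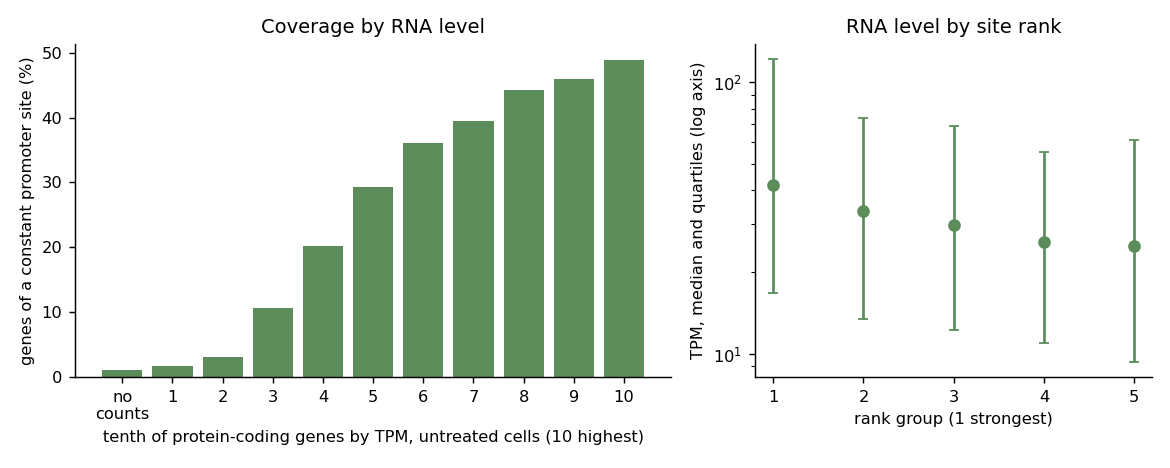
Left, share of protein-coding genes assigned to a constant promoter site in each of 10 equal groups of genes by TPM in untreated cells, with genes without counts apart. The bars rise from 1.72% to 48.9%. Right, median TPM with quartiles (log axis) of the genes of sites in each rank group, falling from 41.8 to 25.01 with wide overlap.

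Housekeeping families were covered more often than all genes. Sites were assigned to 46 of 86 genes of cytosolic ribosomal proteins (53.5%), 34 of 78 mitochondrial ribosomal protein genes (43.6%), 23 of 39 proteasome subunit genes (59.0%), 17 of 30 Mediator subunit genes (56.7%), 21 of 46 translation initiation factor genes (45.7%), 18 of 39 genes of spliceosomal SR and snRNP proteins (46.2%) and 15 of 36 aminoacyl-tRNA synthetase genes (41.7%). Complex I subunits had 15 of 37 genes (40.5%). Groups 8, 9 and 10 of the 10 groups of genes by RNA level had shares of 44.2%, 45.9% and 48.9%. The proteasome, Mediator and cytosolic ribosomal protein shares lay above these, and the other housekeeping shares within or below them. The part of RNA level in the family shares was not tested. The ZNF genes, which encode zinc-finger factors, were nearer the background of 22.2%, with 95 of 508 (18.7%). None of 400 olfactory receptor genes and 1 of 55 keratin genes, KRT34, was a member. The lists were chosen with earlier results of these data known.

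Members of different families ranked differently. Ribosomal protein sites had a median rank in the top 9.44% of the constant sites, whereas mitochondrial ribosomal proteins were at 48.9% and complex I subunits at 53.7%. RPL8 had the highest RNA level of the ribosomal protein members (2973 TPM), with ranks of 431, 612, 465 and 352 among the 8981 constant sites, and RPS29 the lowest (54.0 TPM), with ranks from 1818 to 3867. Sites of replication-dependent histone genes ranked higher still, in the top 6.41%, although the 22 member genes had a median of only 0.68 TPM. Most mRNAs of these genes have no poly(A) tail, so their level was not measured in full. The H3C14 site was enriched 73.9-, 82.2-, 152.8- and 79.9-fold, and the gene had no counts in untreated cells. H2BC12 was the highest of them, at 87.2 TPM, with 26.7-, 32.1-, 66.0- and 29.0-fold enrichment.

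Ranks of the sites shifted between treatments about as much as between replicates. To compare lists of different length, the 8981 constant sites were ranked within each library by peak significance. The ranks of the 5192 promoter sites in the 2 untreated libraries differed by a median of 12.7 percentile points, and those in the 2 TWEAK libraries by 9.34, while untreated replicate 2 and TWEAK replicate 2 differed by 9.16. The rank correlation was 0.68 between untreated replicates and 0.81 between untreated replicate 2 and TWEAK replicate 2. At 1001 promoter sites (19.3%) both TWEAK libraries ranked higher than both untreated libraries, beside 16.8% of all constant sites. At 778 (14.98%) both ranked lower, beside 15.9%. The excess of higher over lower sites was not stable. Without untreated replicate 1 the counts were 2188 higher and 2738 lower, and without untreated replicate 2 they were 2470 and 1526. With 2 libraries against 2, an exact permutation test cannot give a p below 0.333.

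Among the sites whose ranks did not overlap, MYBL1, a MYB-family transcription factor gene, rose most. Its fold enrichment was 6.01 and 7.09 in the untreated libraries and 31.3 and 24.5 with TWEAK, and its ranks went from 5461 and 6439 to 881 and 715. GSPT1, which encodes the translation termination factor eRF3a, had 5.62- and 8.32-fold enrichment untreated and 27.99- and 17.6-fold with TWEAK. A signal recognition particle RNA gene on chromosome 17, KLHDC2, a ubiquitin ligase adaptor gene, and EPB41L2, which encodes a cytoskeletal protein, followed. EPB41L2 had 5.39- and 7.25-fold enrichment untreated and 23.6- and 12.8-fold with TWEAK. Each of these sites was higher in both TWEAK libraries, as the choice required.

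The largest falls were at CCDC7, WASHC2C, VPS25, VPS39 and the pair C6orf52 and PAK1IP1. The CCDC7 site had 6.80- and 12.7-fold enrichment untreated and 3.86- and 3.77-fold with TWEAK. The WASHC2C site, of a WASH complex subunit involved in endosomal sorting, had 8.01- and 14.9-fold untreated and 4.16- and 6.02-fold with TWEAK. VPS25, of the ESCRT-II complex, had 9.94- and 7.70-fold and then 5.92- and 3.55-fold. The VPS39 site, of an endosomal tethering complex, had 11.6- and 13.0-fold untreated and 11.3- and 3.23-fold with TWEAK, so that TWEAK replicate 1 lay close to the untreated values.

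RNA changes with TWEAK were few, both among the genes of constant promoter sites and over all genes tested. RNA-seq was independent of how the sites were chosen. Of 4602 member genes tested, 70 were higher (1.52%) and 46 lower (1.00%) at an edgeR adjusted p under 0.05, beside 1.55% and 1.53% of all 16879 genes tested. The share of higher genes was thus near that over all genes. The median log2 fold change of member genes was 0.035, and 0.022 over all genes. The counts dropped to between 18 (without TWEAK replicate 3) and 64 higher and to between 7 (without TWEAK replicate 2) and 26 lower when 1 of the 6 libraries was left out. These are counts of member genes alone, so they show only the dependence on the libraries.

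The member genes that rose most included parts and targets of the NF-κB pathway. NFKB2, the gene of p100 and p52, was at 49.6, 54.5 and 66.6 CPM in untreated cells and at 235.4, 288.5 and 346.1 CPM with TWEAK, a log2 fold change of 2.35 ± 0.18 (SE, adjusted p = 2.92e-05). All 3 treated libraries lay above the untreated ones. NFKBIE, which encodes the inhibitor IκBε, went from 8.44, 8.33 and 6.16 CPM to 33.3, 35.0 and 38.1 CPM (2.22 ± 0.17, adjusted p = 2.92e-05), again with no overlap. The neutrophil chemokine gene CXCL3 went from 1.60, 2.03 and 2.66 CPM to 8.79, 10.2 and 17.6 CPM (2.54 ± 0.33, adjusted p = 0.00105). These 3 calls held in all 10 alternative fits. NFE2L3, a CNC-family transcription factor gene, had no counts in any untreated library and 14, 19 and 32 counts with TWEAK, and PAPLN had 0, 3 and 3 counts untreated and 11, 36 and 29 with TWEAK. The PAPLN call was lost when any 1 of 4 of the 6 libraries was left out, and the NFE2L3 call was kept. The sites of these 2 genes began downstream of the first annotated start, whereas RNA was counted over the whole gene. CFLAR-AS1, antisense to the caspase inhibitor gene CFLAR, had a log2 fold change of 2.07 ± 0.46 (adjusted p = 0.0302), a call that was lost when any library was left out. Its reads cannot be told from those of CFLAR if the counting ignored strand.

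In the fixed list of NF-κB subunits and inhibitors, 9 of 13 genes were members and 4 of these rose with TWEAK, namely NFKB2, NFKBIE, NFKBIZ (0.92 ± 0.22, adjusted p = 0.0406) and TNIP1 (0.60 ± 0.12, adjusted p = 0.0213). The other members were NFKB1, REL, RELA, BCL3 and TNFAIP3, with log2 fold changes from 0.02 to 0.53 that did not pass the test. Of 4 members of the TWEAK receptor pathway list, BIRC2, the gene of the ubiquitin ligase cIAP1, rose by 1.34 ± 0.25 (adjusted p = 0.0129) and MAP3K14, the gene of the NF-κB-inducing kinase NIK, by 1.57 ± 0.31 (adjusted p = 0.0156), and CHUK and RIPK1 did not pass. Of 6 immediate early genes MYC and KLF4 rose, by 0.71 ± 0.16 (adjusted p = 0.0287) and 0.90 ± 0.14 (adjusted p = 0.00406). Of 8 ETS family members ETS2 rose, by 0.82 ± 0.14 (adjusted p = 0.00698). ETS1 itself had no start in the window of a constant site. None of the 46 ribosomal protein genes, 34 mitochondrial ribosomal protein genes or 23 proteasome genes passed the test in either direction.

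Sites of genes whose RNA rose with TWEAK were compared with those of uncalled genes. The 70 genes that were higher had 78 sites, and at 37 of them (47.4%) both TWEAK libraries ranked above both untreated libraries, beside 18.9% of the 4702 sites of genes tested and not called. Only 4 of the 78 ranked lower (5.13%, against 15.2%). The median rank change was 6.96 percentile points, with quartiles of 1.15 and 19.6. The share was larger than that of the uncalled genes whichever of the 4 RNA Pol II libraries was left out, with 67.9% against 30.0% without untreated replicate 1 and 64.1% against 46.3% without untreated replicate 2. At the 49 sites of genes with lower RNA, 10 ranked higher (20.4%) and 7 lower (14.3%). Over all 4537 protein-coding sites with an RNA value the rank correlation of the 2 changes was only 0.08.

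**Figure D4:**
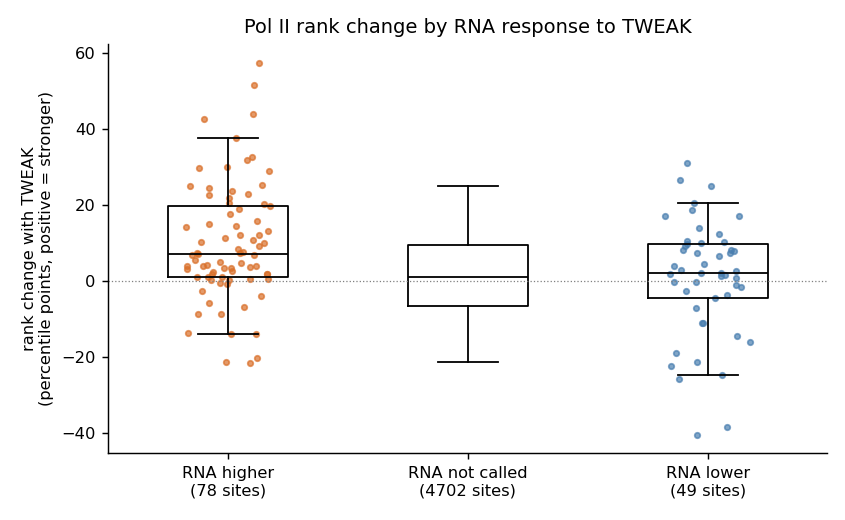
Change in RNA Pol II rank with TWEAK (percentile points among constant sites, positive is stronger) at constant promoter sites of genes whose RNA was higher, not called or lower with TWEAK in edgeR. Boxes are quartiles, whiskers the 5th and 95th percentiles, and points single sites. The box of the RNA-higher genes, with a median of 6.96, lies above that of the uncalled genes, with a median of 0.96, and the 3 groups overlap.

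The sites of the NF-κB genes show the range. At NFKB2 fold enrichment was 8.64 and 6.74 untreated and 38.0 and 10.8 with TWEAK, at NFKBIE 7.26 and 14.2 untreated and 35.9 and 25.1 with TWEAK, and at CXCL3 8.17 and 11.6 untreated and 37.6 and 16.1 with TWEAK. At all 3 both treated libraries were above both untreated ones, and TWEAK replicate 1 was the higher. In KD cells with TWEAK, NFKBIE was at 15.5- and 18.5-fold with ETS1 KD and at 12.8- and 10.8-fold with NFKB2 KD, and CXCL3 at 8.88-, 10.5-, 9.17- and 7.40-fold. NFKB2 was at 9.75- and 6.76-fold with ETS1 KD and 9.89-fold in one NFKB2 KD library, with no peak in the other. NFKBIZ, by contrast, had 5.01-, 7.84-, 6.28- and 6.69-fold enrichment in the control libraries, with no separation. The fold enrichments of different libraries are not scaled to each other, and TWEAK replicate 1 was high at many sites.

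The 250 bases before the MANE starts of NFKB2, NFKBIE and CXCL3 are shown because p52 is an NF-κB subunit. Capitals mark matches to the κB consensus on either strand, and where 2 matches overlap they form a single run. They lie at chr10:102395455-102395704 (plus strand), chr6:44265552-44265801 (minus strand) and chr4:74038690-74038939 (minus strand) on hg38.
NFKB2: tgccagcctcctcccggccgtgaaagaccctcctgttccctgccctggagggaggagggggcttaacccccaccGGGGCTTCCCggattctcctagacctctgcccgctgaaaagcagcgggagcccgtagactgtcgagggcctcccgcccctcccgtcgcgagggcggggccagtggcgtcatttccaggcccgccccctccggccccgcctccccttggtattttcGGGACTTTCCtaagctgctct
NFKBIE: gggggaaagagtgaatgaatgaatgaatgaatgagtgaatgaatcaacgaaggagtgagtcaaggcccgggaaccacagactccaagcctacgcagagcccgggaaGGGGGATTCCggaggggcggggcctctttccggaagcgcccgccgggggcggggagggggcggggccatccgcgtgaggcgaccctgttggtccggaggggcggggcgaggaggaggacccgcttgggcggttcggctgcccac
CXCL3: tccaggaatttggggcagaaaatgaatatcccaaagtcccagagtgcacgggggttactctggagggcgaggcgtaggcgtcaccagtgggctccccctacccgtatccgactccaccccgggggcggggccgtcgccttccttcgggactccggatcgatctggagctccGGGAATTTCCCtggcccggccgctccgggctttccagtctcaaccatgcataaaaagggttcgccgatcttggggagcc
The matches began at -176 and -21 in NFKB2, at -144 in NFKBIE and at -79 and -78 in CXCL3. The NFKB2 and CXCL3 sites overlapped a p52 region merged from peaks of both TWEAK libraries, and the NFKBIE site did not.

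The falling genes were of mixed kinds. NR2F1, which encodes an orphan nuclear receptor of neural development, went from 102.6, 107.1 and 125.8 CPM to 47.0, 55.5 and 49.0 CPM (-1.15 ± 0.20, adjusted p = 0.00929), with no overlap. AK5, an adenylate kinase gene of the nervous system, changed by -1.37 ± 0.25 (adjusted p = 0.01), and SHC4, FAXDC2, LINC02709 and FAM87A by between -1.03 and -1.88. The sites of AK5, SHC4 and FAXDC2 lay inside the gene, away from its first annotated start, whereas RNA was counted over the whole gene. The SHC4 site also had a start of EID1 in its window. The calls of FAXDC2 and LINC02709 were lost when any of the 6 libraries was left out, that of FAM87A with 5 of them and those of AK5 and SHC4 with 4 of them. NR2F1 lost its call without 1 library, TWEAK replicate 3.

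Most constant promoter sites kept a peak in the KD cells. A peak was present at 90.9% and 92.2% of the sites in the 2 ETS1 KD lists and at 96.3% and 77.2% in the 2 NFKB2 KD lists. Both ETS1 KD lists held 4492 of the 5192 sites (86.5%, interval 85.6 to 87.4), and both NFKB2 KD lists 3943 (75.9%, interval 74.8 to 77.1). All 4 lists held 3663 sites (70.6%) and none of them 42 (0.81%). The low value belonged to NFKB2 KD replicate 2, whose list was the shortest. When each of the 6 lists compared was limited to its 11110 strongest peaks, 3612 constant promoter sites were left and 84.9% of them were in both NFKB2 KD lists. The part of list length in the difference between the KDs was not tested further.

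Other classes of site were found less often in the KD lists. Constant sites outside promoters were present in both ETS1 KD lists in 77.6% of cases and in both NFKB2 KD lists in 45.3%. With lists of equal length the latter was 75.3%. Of the 279 promoter sites gained with TWEAK, 20.4% were in both ETS1 KD lists and 7.17% in both NFKB2 KD lists. Their median merged width was 485 bp, against 1025.5 bp for the constant promoter sites, and the part of site strength in their presence was not tested. Gained sites were chosen for lacking a peak in both untreated lists, and constant sites for a peak in every control list. These classes thus differ in detection by choice, and their shares in the KD lists are only a description.

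Presence followed strength. In rank group 1 of the constant promoter sites 98.7% were in all 4 KD lists, in group 3 75.7%, and in the weakest 27.7%. The share in both ETS1 KD lists went from 99.9% to 58.3% and that in both NFKB2 KD lists from 98.7% to 40.2% between group 1 and group 5. No site of groups 1 to 3 was missing from all 4 lists.

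**Figure D5:**
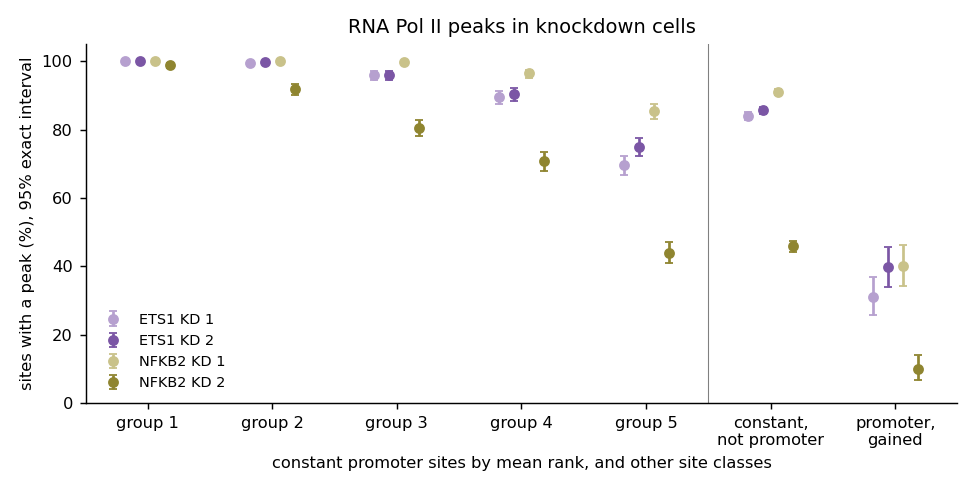
Share of sites with an RNA Pol II peak (%) in each of the 4 KD lists, with 95% exact binomial intervals, for constant promoter sites by rank group (left of the line) and for constant sites outside promoters and promoter sites gained with TWEAK (right). Shares fall towards group 5 in every list, and NFKB2 KD replicate 2, the shortest list, lies lowest.

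Of the 42 sites absent from all KD lists, 38 were in rank group 5 and the other 4 in group 4. The best ranked belonged to RRP7A, a ribosome biogenesis factor gene, and NBAS, whose product acts in retrograde transport. RRP7A had 6.67-, 11.6-, 10.7- and 7.65-fold enrichment in the control libraries and NBAS 7.04-, 9.77-, 13.3- and 6.80-fold. EEF1AKMT2, a methyltransferase gene of an elongation factor, RNF170, a ubiquitin ligase gene, and TTC30A, a gene of intraflagellar transport, followed. Their fold enrichments lay between 3.98 (TTC30A) and 9.67 (TTC30A). The peaks of all 5 sites were narrow, with median widths between 243 (RNF170) and 417 bp (TTC30A).

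Few genes were called in RNA with either KD, among the genes of these sites as over all genes tested. With ETS1 KD, 10 of 4602 member genes were higher (0.217%) and 36 lower (0.782%), beside 0.255% and 1.13% of all genes tested. The 10 fell to between 0 (without control TWEAK replicate 2 or ETS1 KD replicate 3) and 5 when 1 library was left out and the 36 to between 23 (without ETS1 KD replicate 3) and 29, while DESeq2 called 38 and 64. With NFKB2 KD none was higher and 1 was lower, beside 0.00592% and 0.0237%. The gene that fell was NFKB2 itself. For NFKB2 KD, DESeq2 called 0 member genes higher and 4 lower. The counts from these alternatives are of member genes alone and show only the dependence on processing. The KD comparisons share their control libraries, so they are not independent of each other.

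The member genes that fell most with ETS1 KD were STX5-DT, ATP6V0D2 and NUPR1. NUPR1, a stress-induced chromatin protein gene, was at 26.6, 21.7 and 19.1 CPM in control cells with TWEAK and at 7.71, 5.61 and 4.55 CPM with ETS1 KD (-1.91 ± 0.19, adjusted p = 0.000235). ATP6V0D2, a vacuolar ATPase subunit gene, was at 48.3, 46.1 and 46.6 CPM and at 11.99, 13.2 and 9.87 CPM (-2.01 ± 0.25, adjusted p = 0.00145). Neither overlapped between groups, and both calls held in all 10 alternative fits. STX5-DT, a divergent transcript of STX5, was near the limit of detection, with 8, 18 and 20 counts in control cells and 5, 3 and 1 with ETS1 KD (-2.25 ± 0.47, adjusted p = 0.032), and 5 of the 10 alternatives lost the call. In the list of 15 tRNA synthetase members, GARS1 (-0.74 ± 0.10, adjusted p = 0.00253) and WARS1 (-0.73 ± 0.12, adjusted p = 0.00631) fell. NFKBIZ, which rose with TWEAK, was lower with ETS1 KD by -1.42 ± 0.22 (adjusted p = 0.0054).

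Of the genes that rose with ETS1 KD, C3, BMPER and TIMP1 rose most. The complement gene C3 went from 32.6, 54.3 and 80.1 CPM to 148.4, 109.0 and 178.2 CPM (1.38 ± 0.28, adjusted p = 0.0282), BMPER, a BMP-binding regulator, rose by 0.82 ± 0.13 (adjusted p = 0.00642), and TIMP1, a metalloproteinase inhibitor gene, by 0.76 ± 0.13 (adjusted p = 0.0108). The calls of C3 and TIMP1 were lost when any 1 of 4 of the 6 libraries was left out, and that of BMPER without control TWEAK replicate 2 or ETS1 KD replicate 3. BMPER had an RNA Pol II site that overlapped an ETS1 region merged from peaks of both TWEAK libraries, and C3 and TIMP1 did not. Neither did STX5-DT, ATP6V0D2 or NUPR1, which fell. Such a region overlapped 3 of 11 sites of genes that rose with ETS1 KD and 2 of 38 sites of genes that fell (5.26%). For sites of uncalled genes the share was 7.34%.

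A minority of the sites overlapped ETS1. With TWEAK, ETS1 peaks of replicate 1 overlapped 698 sites (13.4%) and those of replicate 2 overlapped 601 (11.6%), and regions merged from overlapping peaks of both, called shared here, overlapped 380 (7.32%, interval 6.63 to 8.06). In untreated cells the shared regions overlapped 243 (4.68%), but untreated replicate 2 had a short ETS1 list of 1922 peaks. Outside promoters 4.14% of the constant sites overlapped a shared ETS1 region with TWEAK, and of the gained promoter sites 2.87%. The overlap was 11.3% in rank group 1 and 5.11% in group 5. Longer sites also have more room for an overlap, and the part of width was not tested.

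The ETS core hardly separated the sites with ETS1 from those without. Among member promoters, 8.94% of 1052 with CTTCCGG belonged to a site overlapping ETS1 (interval 7.28 to 10.8), against 7.13% of 3322 without it (interval 6.28 to 8.06). For TCTCGCG the shares were 16.7% of 378 (interval 13.1 to 20.8) and 6.71% of 3996 (interval 5.95 to 7.53). Put the other way, TCTCGCG was in 19.0% of 331 ETS1-overlapping member promoters and CTTCCGG in 28.4%. Motifs were sought around the MANE start of the gene, which can lie away from the site.

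For each motif the 3 strongest ETS1-overlapping sites that held it close to the MANE start are shown over 150 bases of hg38 around it, with the motif in capitals on either strand. ZNF143, itself a promoter-binding zinc-finger factor gene, is at chr11:9460887-9461036 (plus strand), CSNK1G3, a casein kinase gene, at chr5:123512052-123512201 (plus strand) and STK24, a sterile-20 kinase gene, at chr13:98577083-98577232 (minus strand), and these 3 hold CTTCCGG. The peroxiredoxin gene PRDX1 is at chr1:45521860-45522009 (minus strand), the ribosomal protein gene RPS19 at chr19:41860130-41860279 (plus strand) and NOL11, a ribosome biogenesis gene, at chr17:67717811-67717960 (plus strand), and these hold TCTCGCG.
ZNF143: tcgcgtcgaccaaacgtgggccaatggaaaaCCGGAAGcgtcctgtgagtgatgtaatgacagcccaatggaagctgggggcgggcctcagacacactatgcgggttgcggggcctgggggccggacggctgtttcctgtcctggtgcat
CSNK1G3: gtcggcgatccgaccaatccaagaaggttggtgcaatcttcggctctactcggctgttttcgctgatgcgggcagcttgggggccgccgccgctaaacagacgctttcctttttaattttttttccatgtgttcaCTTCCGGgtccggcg
STK24: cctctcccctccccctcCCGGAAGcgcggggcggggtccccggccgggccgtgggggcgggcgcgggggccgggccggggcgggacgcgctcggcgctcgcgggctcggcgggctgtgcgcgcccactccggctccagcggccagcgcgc
PRDX1: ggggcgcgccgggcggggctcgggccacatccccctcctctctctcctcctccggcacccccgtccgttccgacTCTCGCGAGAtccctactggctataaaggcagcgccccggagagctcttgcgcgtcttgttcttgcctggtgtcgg
RPS19: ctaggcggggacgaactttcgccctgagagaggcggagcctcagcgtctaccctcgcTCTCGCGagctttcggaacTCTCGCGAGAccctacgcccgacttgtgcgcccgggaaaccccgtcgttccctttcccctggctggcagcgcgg
NOL11: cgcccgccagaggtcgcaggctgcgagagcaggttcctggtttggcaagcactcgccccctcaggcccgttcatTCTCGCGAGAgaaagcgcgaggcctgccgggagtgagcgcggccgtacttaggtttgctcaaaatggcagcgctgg
In PRDX1, RPS19 and NOL11 matches on both strands overlap to form a palindrome. The PRDX1 site was enriched 77.4-, 91.8-, 180.4- and 88.4-fold and was ranked between 97 and 110 in the 4 control lists. The ZNF143 site, with 39.9-, 59.1-, 78.6- and 46.7-fold enrichment, and the CSNK1G3 site, with 42.6-, 61.2-, 70.7- and 43.0-fold, both ranked lower in both TWEAK libraries than in the untreated ones.

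p52 was almost absent from the sites before treatment. In untreated cells p52 peaks overlapped 1 site in replicate 1 and none in replicate 2, from lists of only 554 and 363 peaks. With TWEAK the lists held 3439 and 11678 peaks, of which those of replicate 1 overlapped 250 sites (4.82%) and those of replicate 2 overlapped 850 (16.4%), and 258 sites (4.97%) overlapped a region merged from peaks of both. A merged region reaches beyond the replicate 1 peak in it, so this count can exceed that of replicate 1. Outside promoters the share was 5.75%. With ETS1 KD and TWEAK, 1.89% and 5.28% of the sites overlapped p52 with guide 1 and 6.68% and 5.60% with guide 2. These lists held 1352 and 3821 peaks for guide 1 and 4183 and 3850 for guide 2. All were shorter than the list of control replicate 2 with TWEAK, and the part of list length in the overlaps was not tested. Both ETS1 and p52, each in both TWEAK libraries, overlapped 27 sites (0.52%). Of the 78 sites of genes that rose in RNA with TWEAK 15 overlapped p52 (19.2%). Of the 49 sites of genes that fell 3 did (6.12%), and of the 4702 sites of uncalled genes 223 (4.74%). Shared ETS1 regions with TWEAK overlapped 9 of the 78 (11.5%), 11 of the 49 (22.4%) and 336 of the 4702 (7.15%). Of the 9 NF-κB list members, 5 sites overlapped p52, those of NFKB2, REL, TNFAIP3, TNIP1 and BCL3.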

How the data were processed

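ChIP-seq peak lists and an RNA-seq count table were used as deposited. The authors' peaks come from MACS2, run on Bowtie2 alignments (hg38) with input as control, and exclude blacklisted regions. The deposited lists give each peak's fold enrichment over input (a ratio) and its −log10 p and −log10 q. The authors made the RNA counts per gene from STAR alignments to hg38 with featureCounts. The strand setting of the counting and the versions of these tools are not given in the sources used here.

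Peaks were merged where they shared at least 1 bp, and transcript starts were read from GENCODE release 44. Each site was given 1 gene, the protein-coding gene with the nearest start in the window or otherwise the nearest gene. Sites were ranked by −log10 p and then fold enrichment among the 8981 constant sites. Shares carry 95% exact binomial intervals. Counts of the 12 RNA libraries were fitted together in 4 groups with edgeR 4.0.16 in R 4.3.3 (TMM, filterByExpr, quasi-likelihood test, Benjamini-Hochberg adjustment over 16879 genes), and all adjusted p-values come from this fit. DESeq2 1.42.0 served as an alternative. The scripts were tested on simulated data. TPM used the merged exon length. Promoters were read from hg38, and motifs were searched on both strands.

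The members, gene lists and motifs were chosen with earlier results of these data known. Named were the 8 best ranked sites, the 5 widest by median peak width, the 5 largest rank rises and falls, the 5 best ranked sites in no KD list, the 6 member genes with the largest called RNA rise and fall with TWEAK and the 3 with each KD, examples from the gene lists with the highest and lowest RNA level, and 2 sites inside and outside each window edge. Alternatives changed the peak threshold, window, transcript starts, overlap, list length, library set, test, filter and gene assignment.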

Additional observations from a re-analysis of the deposited data

How the results depend on the processing

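The share of constant sites called promoters, 57.8%, was 67.1% with peaks of −log10 q of at least 5, 68.0% with a window of 2000 bp upstream to 500 bp downstream, 51.8% with protein-coding starts only, 70.1% when a site had only to span a start (chosen after seeing the data), and 53.1% to 57.1% without 1 library. The stricter peaks left 3486 constant promoter sites, of which 2871 were in both ETS1 KD lists, 2460 in both NFKB2 KD lists, 664 ranked higher with TWEAK, and 165 overlapped ETS1 and 161 p52. Without 1 library, 1847 to 2470 sites ranked higher and 1526 to 2738 lower, 601 to 698 overlapped ETS1 and 250 to 850 p52.

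For RNA with TWEAK, DESeq2 called 110 member genes higher and 96 lower, and without a filter 90 were lower. Leaving out 1 library gave 18 to 64 higher and 7 to 26 lower. For ETS1 KD, DESeq2 called 38 higher and 64 lower, no filter gave 28 higher, an unadjusted p of at most 0.05 with a fold of at least 1.5 gave 23 higher and 96 lower, and leaving out 1 library gave 0 to 5 higher and 23 to 29 lower. For NFKB2 KD, no filter gave 6 higher and 5 lower, the unadjusted threshold 12 and 13, and DESeq2 4 lower. These counts, and those with the replicate block below, are of member genes alone. The shares over all genes are not given beside them, so they show only the dependence on processing. The median TPM of 30.2 was 31.4 with the longest transcript, 27.9 with every gene in the window and 30.8 with genes that had counts. The causes of these shifts were not tested.

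Deviations of same-numbered RNA libraries from their group means correlated with r from -0.30 to 0.49, and those of differently numbered libraries from -0.56 to 0.49. All pairs of replicate 3 were positive (0.07 to 0.49), so whether the numbers pair the samples was not settled. The main fit did not treat them as pairs. With the replicate block, 99 and 64 member genes were called with TWEAK, 11 and 41 with ETS1 KD and 0 and 1 with NFKB2 KD. Of 19 values of genes named for the largest RNA changes, 12 lost their call under at least 1 of 10 alternatives and none changed direction. Calls of genes named only from the gene lists, such as NFKBIZ, TNIP1, MYC and GARS1, were not followed through the alternatives. The peak lists hold no reads, so depth limits weak sites in a way that was not measured.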
